A study of Homo sapiens with 17 samples.

Results

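The genes described here are 39 listed NF-kB subunits, inhibitors, cytokines, chemokines, receptors and adhesion molecules, measured by RNA-Seq in SF8628 cells with and without the BET bromodomain inhibitor AZD5153. SF8628 is an established diffuse midline glioma (DMG) cell line with the H3K27M mutation, also labelled DIPG, and it was grown as monolayers with serum. The 4 groups were DMSO (vehicle) for 24 hours, 1 μM AZD5153 for 24 hours, DMSO for 48 hours and 1 μM AZD5153 for 48 hours, with 3 libraries each. All groups shared the same cell line and its mutation, so the comparisons rest on 1 line, and the labels do not say whether the 3 libraries of a group came from separate cultures. The p-values therefore measure the spread between these libraries, which may be technical.

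Symbols were matched to Ensembl gene identifiers, and the genes kept were chosen by a measured value, the mean normalized count over the 12 libraries, with a minimum of 10. A normalized count is a gene's number of reads after division by a scaling factor for library depth. Of the 39 genes, 38 were found among the 60664 genes of the table, and 28 reached the minimum, as did 15599 genes in all. CXCL6, CCL2, CCL5, CCL7, CCL20, IL6, IL1A, IL1B, IL32 and CSF2 were under it, and no entry was matched for SOD2. CXCL1 was just inside the minimum with a mean of 11.3, while CXCL6 with 9.58 and IL6 with 7.02 were just outside. Of the 28 genes, 24 had a mean of at least 10 in DMSO and in AZD5153, and CXCL8, CXCL1, CXCL2 and GPR183 passed only through DMSO, where they were high, so their difference is partly a condition of being counted. The list was drawn up with results of these libraries known, and its counts are a description.

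NF-kB transcription factors are dimers of the products of RELA, RELB, REL, NFKB1 and NFKB2. In resting cells they are held in the cytoplasm by IkB proteins such as the product of NFKBIA, and signals from TNF, IL-1 and Toll-like receptors release them to switch on cytokines, chemokines, adhesion molecules and their own inhibitors. BET proteins, which AZD5153 displaces from chromatin, read acetylated lysines.

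The libraries held 15759148 to 27335220 reads on genes. DMSO 24-hour replicate 1 stood apart from its group, with 44.6 on the second principal component of all genes tested against 17.4 and 16.6 for replicates 2 and 3. The counts of lower and higher listed genes after 24 hours are therefore also given without it. The counts of overlap, of deep falls and of the pathway and marker lists include it. The defining glial markers OLIG1 and OLIG2 were at 0 in every library, and SOX10 and PDGFRA had means of 1.01 and 2.66 normalized counts, while 7 of the 12 glioma and glial progenitor markers listed had a mean of at least 10. Their means were 18049 for VIM, 1581 for CSPG4, 1336 for NES, 191 for SOX2, 66.5 for BCAN, 35 for GFAP and 14.2 for PTPRZ1. With AZD5153, CSPG4, NES and SOX2 fell at both times and VIM after 24 hours, and BCAN (3.21 on the log2 scale after 24 hours and 1.96 after 48 hours) and PTPRZ1 (1.44 and 2.93) rose. VIM had 28352, 20900 and 19355 normalized counts in DMSO after 24 hours and 17916, 18011 and 19727 in AZD5153. The VIM groups thus overlapped, and the highest value was that of DMSO replicate 1, which stood apart.

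Sequences at the start sites are shown for genes that fell and for genes that rose, because both kinds held the letters bound by NF-kB dimers in the reference genome. Windows from 250 bases before to 50 bases after each start site were taken from RefSeq on GRCh38.p14. They were searched on both strands for the 10-base kB consensus GGGRNNYYCC, where R is A or G, Y is C or T and N is any base. Of the 39 genes, 33 had a window, and RELB, NFKBIE, CCL5, CSF1, LIF and CCL2 had none. A match was found in 16 of the 33 (48.5%), against 13.3% of the 27305 genes with a window. The list was chosen as NF-kB and inflammatory genes, so the higher share is partly a condition of that choice. The stretches around the match are nearly the same in CXCL1, CXCL2 and CXCL3, and in CXCL5 and CXCL6, and each gene was counted. The same kind of match stood before genes that AZD5153 lowered at both times (8 of 16 with a window) and genes that it raised at either time (3 of 5 with a window). Each line below is printed 5′ to 3′ on the strand of the gene, and capitals mark 1 match per line.
VCAM1: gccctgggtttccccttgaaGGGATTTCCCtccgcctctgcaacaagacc
CXCL1: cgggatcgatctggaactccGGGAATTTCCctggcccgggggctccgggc
CXCL2: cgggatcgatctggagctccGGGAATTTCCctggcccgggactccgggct
CXCL3: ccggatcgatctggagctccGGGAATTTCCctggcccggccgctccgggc
CXCL5: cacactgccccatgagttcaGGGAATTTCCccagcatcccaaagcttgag
NFKB1: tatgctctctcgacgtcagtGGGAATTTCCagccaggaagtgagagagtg
TNFAIP3: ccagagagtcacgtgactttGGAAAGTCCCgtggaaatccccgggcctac
NFKBIA: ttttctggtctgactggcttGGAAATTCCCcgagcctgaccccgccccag
REL: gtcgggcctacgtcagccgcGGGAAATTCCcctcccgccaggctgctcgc
NFKBIZ: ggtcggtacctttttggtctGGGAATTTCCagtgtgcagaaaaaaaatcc
The plus-strand sequences lie at chr1:100719660-100719709 (VCAM1), chr4:73869294-73869343 (CXCL1), chr4:102501290-102501339 (NFKB1), chr6:137867172-137867221 (TNFAIP3), chr2:60881507-60881556 (REL) and chr3:101827747-101827796 (NFKBIZ). The minus-strand ones lie at chr4:74099244-74099293 (CXCL2), chr4:74038739-74038788 (CXCL3), chr4:73998739-73998788 (CXCL5) and chr14:35404801-35404850 (NFKBIA). In CXCL1, CXCL2, CXCL3, CXCL5 and REL the match on one strand overlaps a match on the other strand shifted by 1 base. The TNFAIP3 line holds another match, GGAAATCCCC, which is left in lower case. A match names letters and not a bound site, and the windows of ICAM1, CXCL8, CXCL12, GPR183 and TRAF1, which also fell, did not hold these letters. Sequences that differ from the consensus were not searched for, so a window without a match may still hold a kB site.

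The first question was how the genes changed with AZD5153 at each time. After 24 hours, 20 of the 28 genes were lower and 6 higher than in DMSO (limma, Benjamini-Hochberg adjusted p under 0.05), where 34.6% of all 15599 genes tested were lower and 33.9% higher. After 48 hours, 21 were lower and 3 higher, against 33.9% and 33.1% of all genes tested. Among the 24 genes over the minimum in both treatments, 16 were lower and 6 higher after 24 hours, and 17 were lower and 3 higher after 48 hours. Over both times together, 22 of the 28 were lower and 5 higher, against 38% and 37.7%, and of the 24 genes 18 were lower and 5 higher. The median log2 fold change of the 28 genes was -1.44 after 24 hours and -1.32 after 48 hours, and that of all genes tested was 0.00037 and 0.0011. CXCL8, CXCL1, CXCL2 and GPR183, which passed the minimum only through DMSO, are included, so the median of the 28 is partly a condition of being counted. Without DMSO 24-hour replicate 1, 20 genes were lower and 5 higher after 24 hours.

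By direction, 19 genes fell at both times, as did 27.1% of all genes tested, and 15 of the 24 over the minimum in both treatments did. RELA, NFKBIA and NFKBIE rose at both times, as did 26% of all genes tested. REL, NFKBIZ and IL11 rose after 24 hours and CXCL3 fell after 24 hours, without passing the test after 48 hours, and OSMR and PTGS2 fell after 48 hours without passing it after 24 hours. All AZD5153 libraries were below all DMSO libraries for 20 genes at each time, against 34.8% of genes tested after 24 hours and 37.2% after 48 hours, and above them for 5 genes at each time, against 34% and 37.5%. Of the 24 genes, 16 were below at each time and 5 above. Falls past -2 on the log2 scale were seen for 11 genes after 24 hours (5.26% of genes tested) and 8 after 48 hours (6.12%), and falls past -4 for 3 (0.545%) and 5 (1.1%). Among the 24 genes over the minimum in both treatments, falls past -2 numbered 7 after 24 hours and 6 after 48 hours, and falls past -4 numbered 2 and 4.

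**Figure D1:**
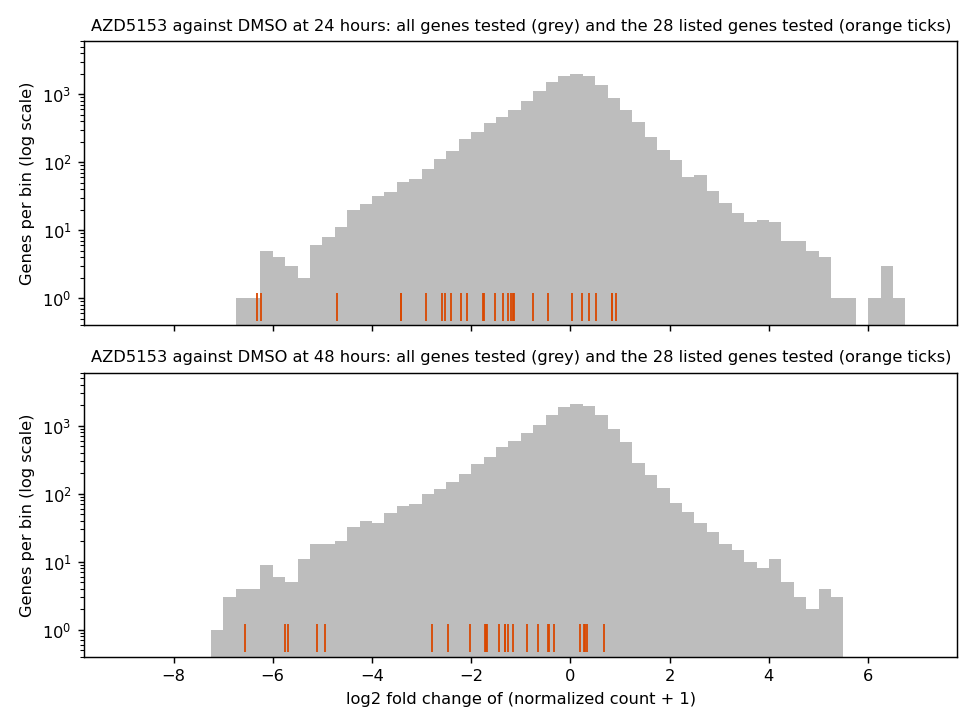
Distribution of the log2 fold change of (normalized count + 1) in AZD5153 against DMSO, after 24 hours (top) and 48 hours (bottom). Grey bars count the 15599 genes tested per bin of 0.25 on a log axis, and orange ticks mark the 28 listed genes, whose medians are -1.44 and -1.32. CXCL8, CXCL1, CXCL2 and GPR183, which passed the minimum only through DMSO, are included.

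The plot of normalized counts by library gives all 28 genes in the order in which they are described. In bulk RNA, fewer cells of a type and less RNA per cell cannot be told apart.

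**Figure D2:**
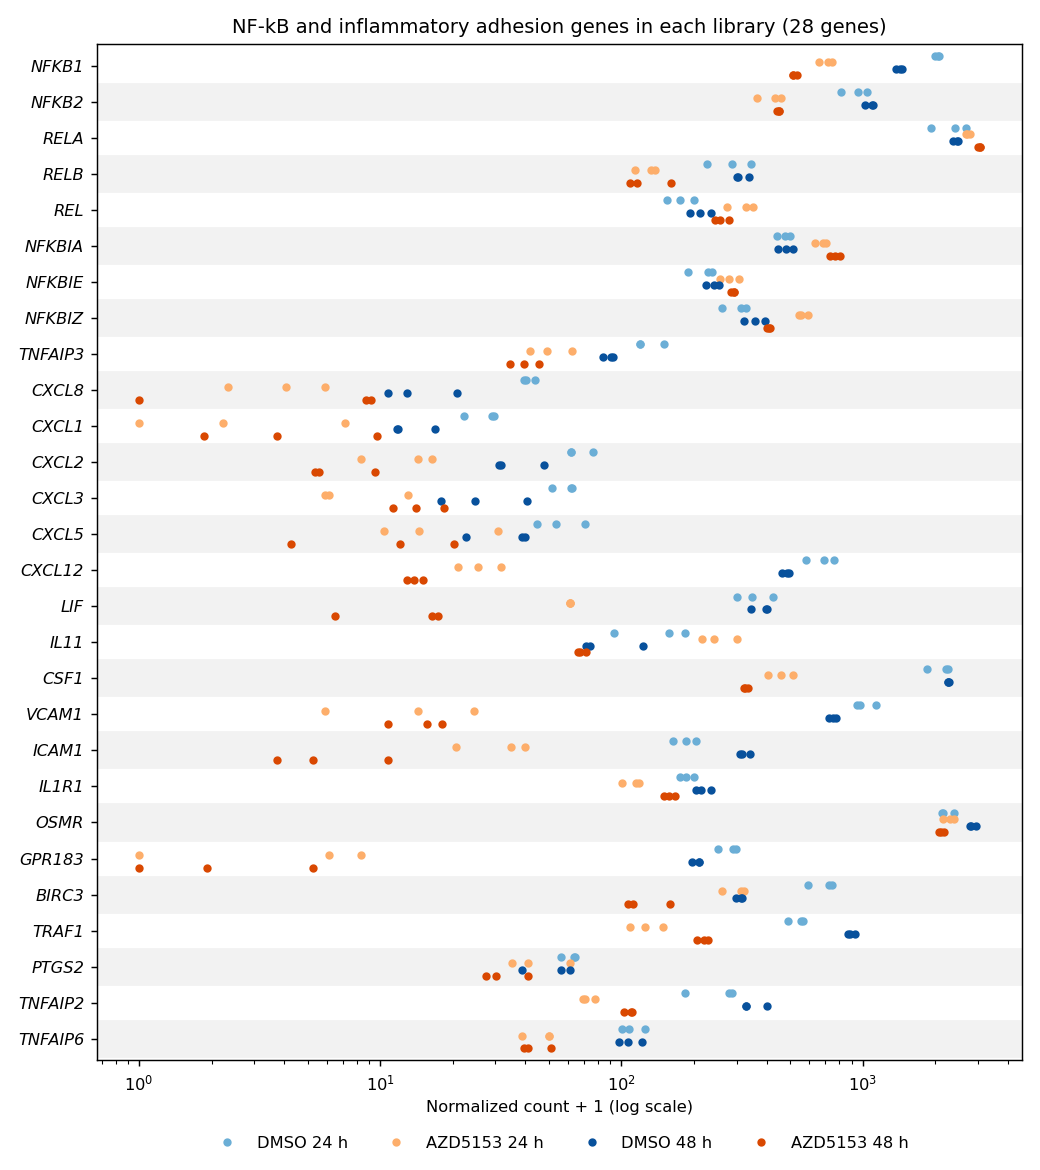
Normalized count + 1 on a log axis for the 28 genes, with 1 point per library and 4 colours for the groups. VCAM1, CXCL12, GPR183, LIF and CSF1 show the AZD5153 libraries far to the left of the DMSO libraries, and RELA, NFKBIA and NFKBIE show them to the right or, for RELA after 24 hours, partly overlapping.

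Of the 5 subunit genes, NFKB1, NFKB2 and RELB fell at both times. NFKB1, which encodes p105 and its product p50, had 2002, 2045 and 2066 normalized counts in DMSO after 24 hours and 747, 719 and 661 in AZD5153. After 48 hours the values were 1427, 1369.7 and 1459 in DMSO and 534, 513 and 512 in AZD5153, so that groups did not overlap at either time. The log2 fold change was -1.52 (SE 0.062) after 24 hours and -1.45 (SE 0.062) after 48 hours (adjusted p 5.4e-12 and 1e-11). NFKB2, which encodes p100 and its product p52, went from 936 ± 114 (mean ± SD, n = 3, as below) to 418 ± 47.8 after 24 hours and from 1072 ± 41.5 to 446 ± 3.68 after 48 hours. RELB, the usual partner of p52 in the noncanonical arm, went from 286 ± 60.4 to 127 ± 12.9 and from 314 ± 20.8 to 127 ± 28.3. The log2 fold changes were -1.16 (SE 0.096) and -1.26 (SE 0.096) for NFKB2 and -1.15 (SE 0.17) and -1.31 (SE 0.17) for RELB, and no library of one treatment reached the range of the other.

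RELA and REL moved the other way. REL, which encodes c-Rel, had 175, 199 and 153 normalized counts in DMSO after 24 hours and 274, 327 and 350.1 in AZD5153, a rise of 0.85 (SE 0.13) on the log2 scale (adjusted p 2.6e-05). After 48 hours its values were 209.9, 234 and 192 in DMSO and 256, 242 and 278 in AZD5153. The groups did not overlap at either time, but after 48 hours the log2 fold change of 0.29 had an adjusted p of 0.059. REL shares 5702 of its 17129 exon bases with a long noncoding RNA gene on the same strand that is listed at 0 in every library, and how reads in the shared part were counted is not given in the sources used here. RELA, which encodes p65, had 1927, 2410.1 and 2689.7 in DMSO after 24 hours and 2672, 2708 and 2785 in AZD5153, so that 1 DMSO library lay within the AZD5153 range. The 48-hour values were 2475, 2464 and 2360.3 in DMSO and 3063, 3075 and 2996 in AZD5153, with no overlap. Its rises were small, 0.23 (SE 0.085) after 24 hours and 0.32 (SE 0.085) after 48 hours (adjusted p 0.025 and 0.0033). The call after 24 hours was lost without DMSO replicate 1 (log2 fold change 0.096, adjusted p 0.10), and both calls were lost when libraries were scaled to equal totals (0.11 and 0.15). In all, 7 other settings ended the 24-hour call, with adjusted p from 0.054 to 0.27. RELA shares 103 exon bases with its divergent transcript RELA-DT on the opposite strand (mean 99.5 normalized counts), and the strand setting of the counting is not given in the sources used here.

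**Figure D3:**
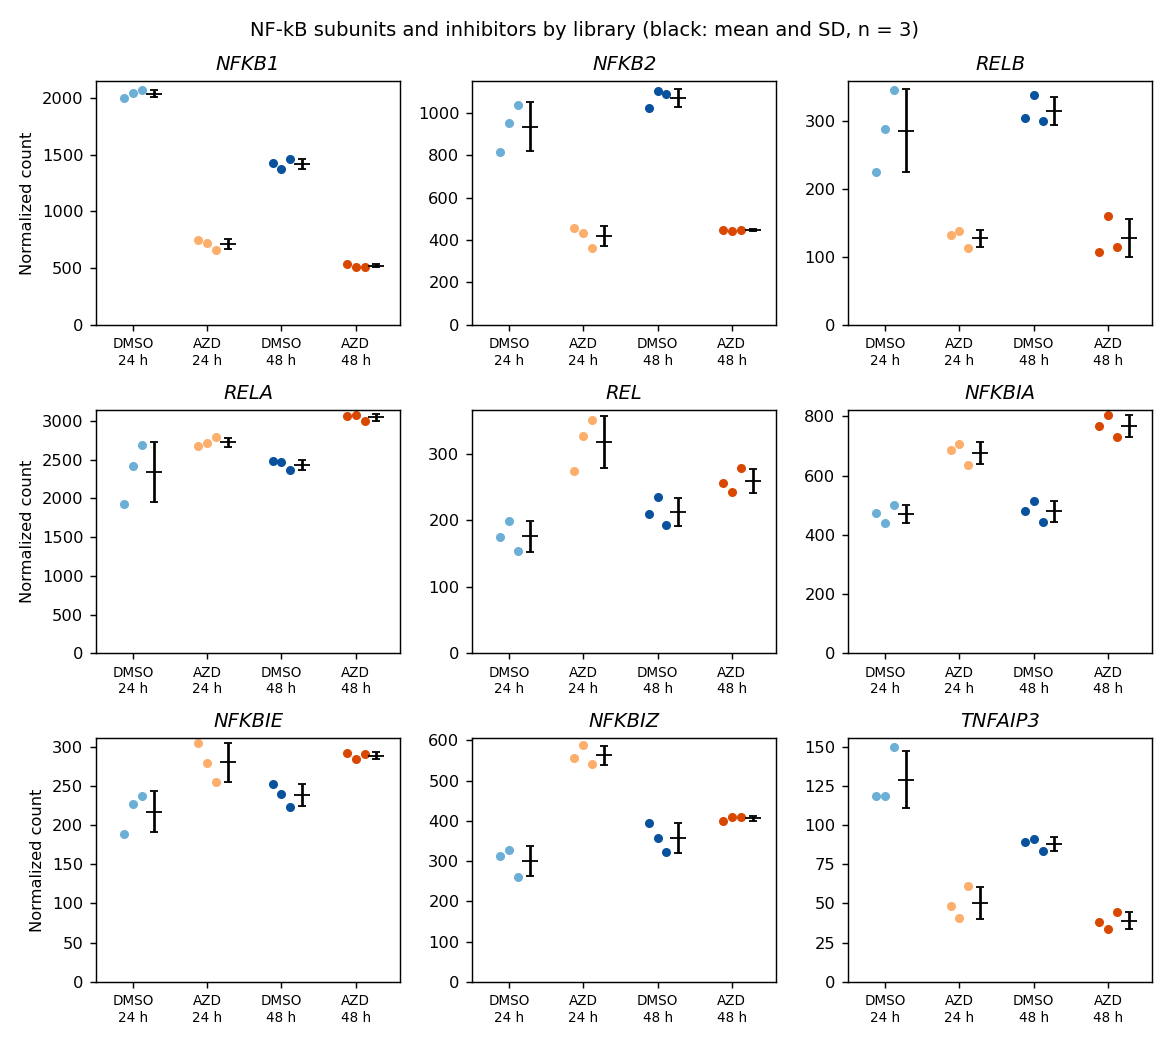
Normalized counts of the 5 NF-kB subunit genes and 4 inhibitor genes in each library, on linear axes from 0, with AZD standing for AZD5153 and black marks for the mean and SD of 3 libraries. NFKB1, NFKB2, RELB and TNFAIP3 are lower in AZD5153 at both times, and NFKBIA is higher at both times.

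The inhibitor genes divided. NFKBIA, which encodes IkB-alpha and is itself a textbook NF-kB target, had 475, 439.9 and 500.1 normalized counts in DMSO and 685, 706 and 635 in AZD5153 after 24 hours. By 48 hours it had 482, 514 and 444 in DMSO and 768, 805 and 731 in AZD5153. Every AZD5153 library was above every DMSO library at both times, and NFKBIA rose by 0.52 (SE 0.082) and 0.68 (SE 0.082) on the log2 scale (adjusted p 3.6e-05 and 2e-06). TNFAIP3, which encodes the ubiquitin-editing enzyme A20 that shuts the pathway off, had 118, 119 and 149.8 in DMSO and 48.3, 41 and 61.2 in AZD5153 after 24 hours. After 48 hours the values were 89.2, 91.3 and 83.1 in DMSO and 38.3, 33.7 and 44.5 in AZD5153. TNFAIP3 fell at both times without overlap, with log2 fold changes of -1.36 (SE 0.19) and -1.17 (SE 0.19).

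NFKBIZ, which encodes the nuclear IkB-zeta, rose from 301 ± 36.4 to 563 ± 24.4 after 24 hours, a log2 fold change of 0.91 (SE 0.10). After 48 hours the means were 358 ± 36.4 and 407 ± 6.3, with a log2 fold change of 0.19 that did not pass (adjusted p 0.11). It shares 194 exon bases with NXPE3 on the same strand. NFKBIE, which encodes IkB-epsilon, went from 217 ± 25.8 to 280.3 ± 25 and from 239 ± 14.4 to 289 ± 3.88. These rises of 0.37 (SE 0.11) and 0.28 (SE 0.11) were the weaker ones of the group: with equal totals they were 0.25 (adjusted p 0.059) and 0.11 (adjusted p 0.41), and the call after 48 hours was lost when any of 5 of its 6 libraries was left out.

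The deepest falls were in adhesion, chemotaxis and cytokine genes. VCAM1 (ENSG00000162692, chr1:100719742-100739045 on GRCh38), the endothelial and stromal ligand of integrin alpha4 beta1, had 1131, 973 and 947 normalized counts in DMSO and 13.4, 23.5 and 4.9 in AZD5153 after 24 hours. After 48 hours it had 754, 722 and 774 in DMSO and 14.6, 9.78 and 17.1 in AZD5153. The lowest DMSO library was above the highest AZD5153 library by a wide margin at both times. The ratio of the means was 72.9-fold lower after 24 hours and 54.2-fold lower after 48 hours, and the log2 fold changes were -6.31 (SE 0.35) and -5.69 (SE 0.35) (adjusted p 2.2e-10 and 7.8e-10). In the order of all 15599 genes tested, VCAM1 was number 2 from the lowest log2 fold change after 24 hours and number 28 after 48 hours.

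ICAM1 (chr19:10271093-10286615), the ligand of the leukocyte integrin LFA-1, fell at both times, and further after 48 hours. After 24 hours it had 162, 184 and 203 normalized counts in DMSO and 38.9, 33.8 and 19.6 in AZD5153. The 48-hour values were 339.6, 309 and 314 in DMSO and 2.74, 9.78 and 4.28 in AZD5153. The DMSO libraries were higher after 48 than after 24 hours and the AZD5153 libraries lower, with no overlap in either treatment. The log2 fold change was -2.58 (SE 0.32) after 24 hours and -5.75 (SE 0.32) after 48 hours, and the difference between them was -3.17 (adjusted p 0.00016). The 48-hour AZD5153 values rest on 3, 9 and 5 reads, and over the other settings the difference lay between -3.60 and -2.16 with its call kept.

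**Figure D4:**
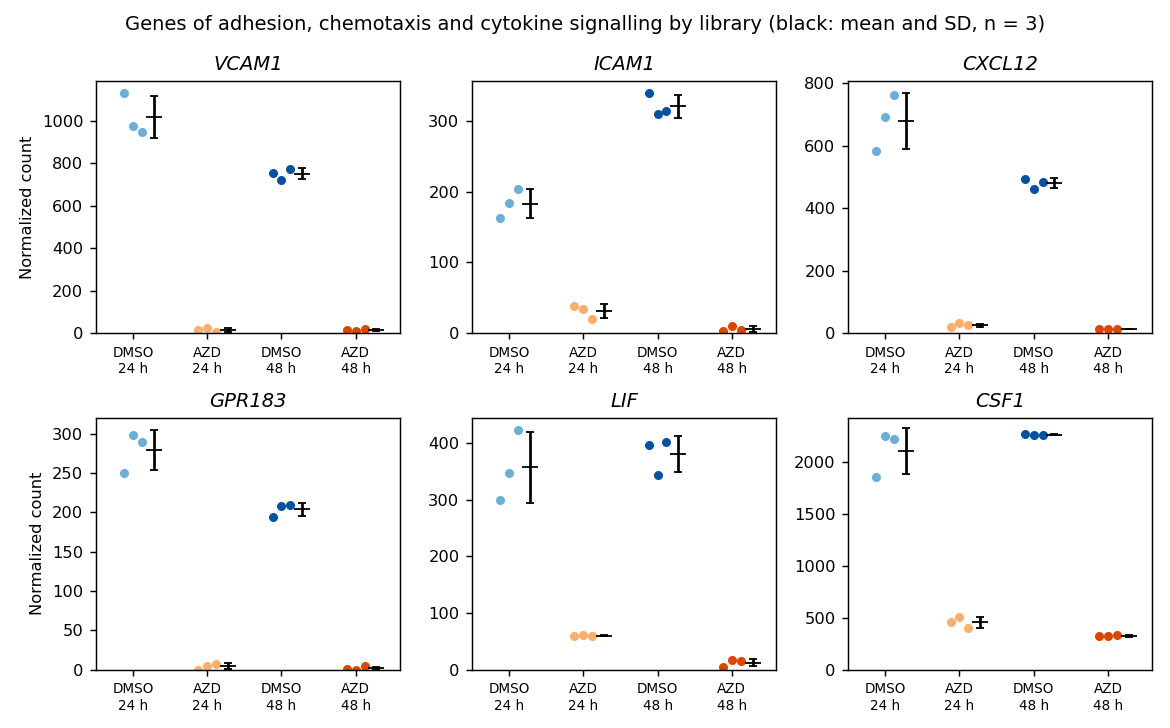
Normalized counts of VCAM1, ICAM1, CXCL12, GPR183, LIF and CSF1 in each library, on linear axes from 0, with AZD standing for AZD5153 and black marks for the mean and SD of 3 libraries. In all 6 genes the AZD5153 libraries sit below the DMSO libraries at both times, and ICAM1 and LIF are lower in AZD5153 after 48 hours than after 24 hours.

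Of the 7 CXC chemokine genes, 6 reached the minimum, 3 of them (CXCL8, CXCL1 and CXCL2) only through DMSO. All 6 fell after 24 hours and 5 after 48 hours, where 34.6% and 33.9% of all genes tested were lower. Among the 3 over the minimum in both treatments, 3 fell after 24 hours and 2 after 48 hours. CXCL12, the stromal ligand of CXCR4 and ACKR3, lies apart on chromosome 10 and was the most abundant of them per kilobase of exon in DMSO (94.2 normalized counts per kb, against 10.4 to 36.3 for the other 5). In AZD5153 it had 3.1 normalized counts per kb, under CXCL2 (6.39), CXCL5 (5.89) and CXCL3 (4.71). It had 583, 689.7 and 762 normalized counts in DMSO and 20.1, 30.7 and 24.5 in AZD5153 after 24 hours. By 48 hours it had 494, 461 and 484 in DMSO and 12.8, 14.1 and 12 in AZD5153. The groups were far apart at both times, with ratios of 27-fold and 37-fold lower and log2 fold changes of -4.71 (SE 0.17) and -5.11 (SE 0.17) (adjusted p 1.3e-12 and 5.1e-13).

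CXCL8, CXCL1, CXCL5, CXCL3 and CXCL2, which draw neutrophils through CXCR1 and CXCR2, lie within chr4:73740519-74099196 in this order. CXCL8 had 42.8, 39.1 and 38.3 normalized counts in DMSO and 1.34, 3.07 and 4.9 in AZD5153 after 24 hours, and 19.8, 9.75 and 11.9 in DMSO and 8.21, 0 and 7.7 in AZD5153 after 48 hours. CXCL1 had 28.2, 21.4 and 28.5 in DMSO and 0, 6.14 and 1.22 in AZD5153 after 24 hours, and 10.8, 16 and 10.8 in DMSO and 2.74, 8.69 and 0.856 in AZD5153 after 48 hours. Both were clear of overlap at both times, but the counts were low and after 48 hours the distance between groups was a few counts. The log2 fold changes were -3.42 (SE 0.70) and -1.72 (SE 0.70) for CXCL8 and -3.41 (SE 0.70) and -1.71 (SE 0.70) for CXCL1. After 24 hours the size varied with the setting, from -3.73 to -1.94 for CXCL8 and from -4.17 to -1.56 for CXCL1, with the call kept. The calls after 48 hours (adjusted p 0.04 and 0.041) were fragile: without AZD5153 48-hour replicate 2, CXCL8 was at -0.67 (adjusted p 0.24), and without AZD5153 48-hour replicate 3, CXCL1 was at -1.15 (adjusted p 0.18).

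CXCL2 had 60.9, 75.4 and 60.6 in DMSO and 13.4, 15.4 and 7.34 in AZD5153 after 24 hours, and 30.6, 47 and 30.2 in DMSO and 4.56, 4.35 and 8.56 in AZD5153 after 48 hours. It fell at both times without overlap, with log2 fold changes of -2.40 (SE 0.35) and -2.46 (SE 0.35). CXCL3 had 50.7, 61.2 and 60.6 in DMSO and 12.1, 5.12 and 4.9 in AZD5153 after 24 hours, and 39.6, 16.8 and 23.8 in DMSO and 17.3, 13 and 10.3 in AZD5153 after 48 hours, when the groups overlapped. Its log2 fold change of -2.91 (SE 0.39) after 24 hours was followed by -0.88 after 48 hours (adjusted p 0.058), and the difference of 2.03 passed the test (adjusted p 0.014). edgeR and DESeq2 on the recovered reads called the fall of CXCL3 after 48 hours (log2 fold changes of -0.99, adjusted p 0.029 and 0.028), and in all 9 other settings did, with log2 fold changes from -1.15 to -0.61 and adjusted p from 0.027 to 0.048. CXCL5 went from 55.4 ± 13.3 to 17.5 ± 10.7 and from 32.8 ± 9.71 to 11.2 ± 7.94, with log2 fold changes of -1.73 (SE 0.51) and -1.69 (SE 0.51), and without AZD5153 48-hour replicate 2 its fall after 48 hours was -1.07 (adjusted p 0.051). Of the 50-base stretches in the transcripts of these genes, 4.57% in CXCL1, 13.4% in CXCL2 and 6.01% in CXCL3 also occur in another of the listed CXC transcripts, so a small part of their reads may have been counted on a neighbour or on neither.

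Of the 8 cytokine and growth factor genes, LIF, CSF1 and IL11 reached the minimum. LIF, an IL-6 family cytokine that signals through LIFR and gp130, had 299.8, 347 and 423 normalized counts in DMSO and 60.3, 60.4 and 60 in AZD5153 after 24 hours. After 48 hours it had 395, 344 and 402 in DMSO and 5.47, 16.3 and 15.4 in AZD5153. The DMSO libraries of both times overlapped, and the AZD5153 libraries of 48 hours lay below those of 24 hours. The log2 fold change was -2.53 (SE 0.28) after 24 hours and -4.96 (SE 0.28) after 48 hours, a difference of -2.43 (adjusted p 0.00043).

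CSF1, which encodes the macrophage growth factor M-CSF, had 417 normalized counts per kilobase of exon in DMSO, number 2 of the 28 genes, and 74.8 in AZD5153, number 7. It had 1854, 2248 and 2217 normalized counts in DMSO and 459, 512 and 404 in AZD5153 after 24 hours, and 2268, 2259.8 and 2256 in DMSO and 320.1, 324 and 333 in AZD5153 after 48 hours. Every AZD5153 library was below every DMSO library, and the AZD5153 libraries of 48 hours lay below those of 24 hours. CSF1 had log2 fold changes of -2.20 (SE 0.088) and -2.79 (SE 0.088), a difference of -0.59 between times (adjusted p 0.0027).

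IL11, an IL-6 family cytokine linked to stromal and fibrotic responses, went the other way after 24 hours. It had 92.4, 182 and 157 in DMSO and 300.3, 242 and 214 in AZD5153 after 24 hours, and 73, 121 and 70.2 in DMSO and 66.6, 70.6 and 65 in AZD5153 after 48 hours. All AZD5153 libraries were above DMSO after 24 hours, and the groups overlapped after 48 hours. The log2 fold change was 0.85 (SE 0.24) after 24 hours (adjusted p 0.0059) and -0.34 after 48 hours (adjusted p 0.23), a difference of -1.18 (adjusted p 0.02). Without DMSO 24-hour replicate 1, the rise after 24 hours was 0.56.

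Of the 3 receptor genes, GPR183 changed most. GPR183 (chr13:99294539-99307399) encodes EBI2, the oxysterol receptor that guides immune cells, and lies within UBAC2 on the opposite strand with no exon bases shared. It had 250.2, 298 and 289.7 normalized counts in DMSO and 0, 5.12 and 7.34 in AZD5153 after 24 hours, and 195, 208 and 209 in DMSO and 0.912, 0 and 4.28 in AZD5153 after 48 hours. A total of 11 reads in AZD5153 after 24 hours and 6 after 48 hours lie behind the low values, and 1 library of each of these groups had 0 reads. The log2 fold changes were -6.24 (SE 0.65) and -6.57 (SE 0.65) (adjusted p 4e-07 and 2.1e-07), and GPR183 was number 3 and number 8 from the lowest of all genes tested. GPR183 passed the minimum only through DMSO, so its fall and its place in this order are partly a condition of being counted. With so few reads the size varied with the setting: it ran from -6.82 to -4.39 after 24 hours and from -7.21 to -4.21 after 48 hours, with the smallest falls at a pseudocount of 10, and the call was kept throughout.

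IL1R1, the signalling receptor of IL-1, went from 185 ± 12.1 to 110.3 ± 9.77 after 24 hours and from 217 ± 16.9 to 157 ± 8.1 after 48 hours, with log2 fold changes of -0.75 (SE 0.12) and -0.46 (SE 0.12) and no overlap. With quantile normalization the fall after 48 hours was -0.18 and lost its call (adjusted p 0.22). OSMR, the oncostatin M receptor subunit, had 2383, 2127 and 2145 normalized counts in DMSO and 2291, 2157 and 2389 in AZD5153 after 24 hours, where the ranges coincided. The 48-hour values were 2938, 2823 and 2772 in DMSO and 2119, 2064 and 2166 in AZD5153, and no longer overlapped. Its log2 fold change was 0.04 after 24 hours (adjusted p 0.55) and -0.43 (SE 0.058) after 48 hours (adjusted p 7.3e-06), a difference of -0.47 (adjusted p 0.00072). OSMR shares 229 exon bases with RICTOR on the opposite strand (mean 1080 normalized counts).

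Of the 5 survival and effector genes tested, 4 fell after 24 hours and 5 after 48 hours, where 34.6% and 33.9% of all genes tested were lower. TRAF1, a signalling adaptor of TNF receptors, had 491, 567 and 552 normalized counts in DMSO and 125, 147 and 108 in AZD5153 after 24 hours, and 932, 866 and 881 in DMSO and 219.8, 228 and 205 in AZD5153 after 48 hours. It was higher after 48 than after 24 hours in both treatments, and its log2 fold changes were -2.08 (SE 0.11) and -2.03 (SE 0.11). BIRC3, which encodes the ubiquitin ligase cIAP2, had 725, 742 and 590.2 in DMSO and 312, 261 and 322 in AZD5153 after 24 hours, and 312, 297 and 314 in DMSO and 158, 105 and 111 in AZD5153 after 48 hours. It was lower after 48 than after 24 hours in both treatments, so that DMSO after 48 hours was near AZD5153 after 24 hours, and its log2 fold changes were -1.20 (SE 0.14) and -1.32 (SE 0.14).

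TNFAIP2, a TNF-induced gene, went from 249.6 ± 58.1 to 71.7 ± 4.46 after 24 hours and from 352 ± 42.8 to 107 ± 4.26 after 48 hours. TNFAIP6, which encodes the hyaluronan-binding protein TSG-6, went from 110.0 ± 12.5 to 45.2 ± 6.65 and from 108 ± 12.4 to 42.9 ± 6.21. Neither overlapped at any time, and the log2 fold changes were -1.76 (SE 0.16) and -1.71 (SE 0.16) for TNFAIP2 and -1.27 (SE 0.19) and -1.31 (SE 0.19) for TNFAIP6. PTGS2, which encodes cyclooxygenase-2, had 55.2, 62.6 and 63.3 in DMSO and 60.3, 39.9 and 34.3 in AZD5153 after 24 hours, and 37.8, 55 and 60.5 in DMSO and 40.1, 29.3 and 26.5 in AZD5153 after 48 hours. The groups overlapped at both times. The log2 fold change was -0.46 (adjusted p 0.13) after 24 hours and -0.65 (adjusted p 0.037) after 48 hours, and the second call was lost under 8 of the other settings, for example without DMSO 48-hour replicate 3 (-0.52, adjusted p 0.14).

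**Figure D5:**
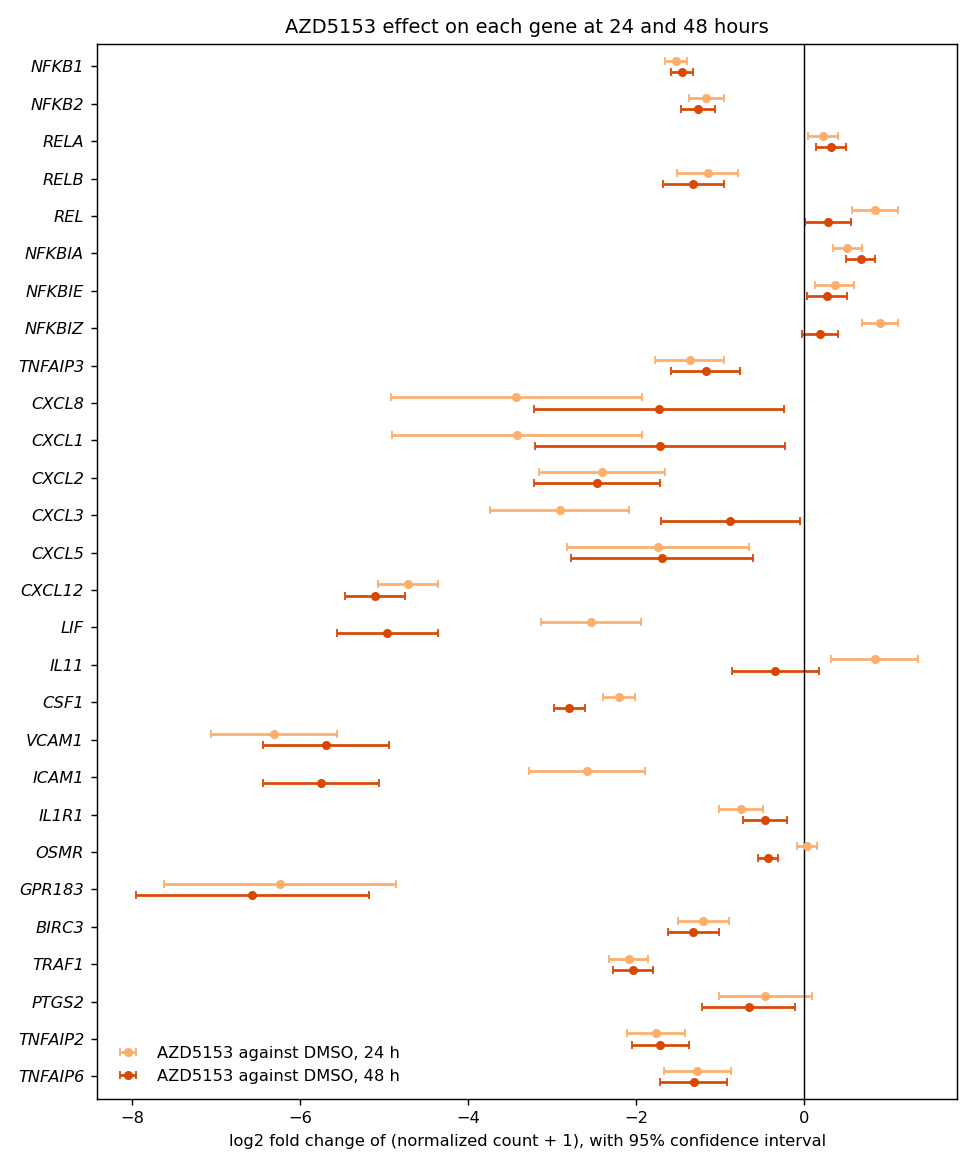
Log2 fold change of (normalized count + 1) in AZD5153 against DMSO for the 28 genes, with 95% confidence intervals from limma, light orange after 24 hours and dark orange after 48 hours. ICAM1 and LIF move further left after 48 hours, CXCL3 moves right, and VCAM1, CXCL12 and GPR183 lie under -4 at both times. CXCL8, CXCL1, CXCL2 and GPR183, which passed the minimum only through DMSO, are included.

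The next question was whether the AZD5153 effect differed between the times. The difference itself passed the test for 8 of the 28 genes, 1 upwards and 7 downwards, against 14.4% and 10.1% of all genes tested, or 24.5% in either direction. CXCL3 was the one with a smaller fall after 48 hours. ICAM1, LIF and CSF1 fell further after 48 hours, REL, NFKBIZ and IL11 rose after 24 hours and had no call after 48 hours, and OSMR fell after 48 hours with no call after 24 hours. The rise of REL after 48 hours did pass under 7 other settings, at 0.29 to 0.56, and that of NFKBIZ with quantile normalization, at 0.37 (adjusted p 0.0056). The differences were -0.56 for REL and -0.72 for NFKBIZ (adjusted p 0.036 and 0.002). That of REL lost its call under 11 other settings, with adjusted p up to 0.11, among them leaving out any of 7 libraries, while its size lay between -0.66 and -0.43. For VCAM1 the difference was 0.62, with a 95% confidence interval from -0.44 to 1.68, and for GPR183 it was -0.33, from -2.29 to 1.63, so that changes of this size between times were not resolved. NFKB1 was more precise, with a difference of 0.077 and an interval from -0.11 to 0.26.

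Some of the genes also moved between 24 and 48 hours within a treatment. Culture time alone differed in DMSO, while in AZD5153 the time with the drug differed along with it. From 24 to 48 hours in DMSO, 3 of the 28 rose and 6 fell, against 16.4% and 19.3% of all genes tested, and in AZD5153 3 rose and 8 fell, against 15.8% and 13.8%. TRAF1 and TNFAIP2 rose with time in both treatments, by 0.74 and 0.52 on the log2 scale in DMSO and 0.79 and 0.57 in AZD5153. NFKB1, BIRC3, CXCL12 and IL11 fell with time in both, and the log2 fold changes of BIRC3 were -1.15 and -1.27. OSMR rose with time in DMSO (0.36) and had -0.11 in AZD5153 (adjusted p 0.19), and IL1R1 rose in AZD5153 (0.51). TNFAIP3 and CXCL3 fell with time in DMSO (-0.54 and -1.16), and CSF1, ICAM1, LIF and NFKBIZ fell with time in AZD5153 (-0.49, -2.36, -2.32 and -0.47). The 6 falls in DMSO became 2 without DMSO 24-hour replicate 2 or 3 or without DMSO 48-hour replicate 3, and 3 without DMSO 48-hour replicate 1 or 2. TNFAIP2 in DMSO was at 0.31 (adjusted p 0.10) without DMSO 24-hour replicate 1.

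Other genes of the pathway, written as lists from general knowledge with earlier results of these data known, were called in both directions. Of 146 listed, 106 were tested, and 28 rose and 50 fell after 24 hours, and 28 rose and 53 fell after 48 hours, with medians of -0.25 and -0.32. These are 26.4% higher and 47.2% lower after 24 hours, where 33.9% and 34.6% of all genes tested were called, and 26.4% and 50% after 48 hours, against 33.1% and 33.9%. The same shares of all genes are the background of each list. MMP1, MMP3, C3, KYNU and PTGER1 passed the minimum only through DMSO and PTGER3 only through AZD5153, and of the 100 genes over it in both treatments 27 rose and 45 fell after 24 hours, and 28 rose and 48 fell after 48 hours. Values in parentheses are log2 fold changes in AZD5153 against DMSO. Among the 14 kinase genes around IKK, 4 rose and 5 fell after 24 hours (28.6% and 35.7%), near the shares of all genes, and 5 rose and 3 fell after 48 hours (35.7% and 21.4%). IKBKE, which encodes the IKK-related kinase IKK-epsilon, fell (-2.69 after 24 hours and -3.00 after 48 hours), while RIPK1, the kinase of the TNF receptor complex, rose (1.04 after 24 hours and 1.26 after 48 hours). IRAK1, the kinase of IL-1 and Toll-like receptors, fell (-0.72 after 24 hours and -0.77 after 48 hours).

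Of 18 receptor and adaptor genes for TNF, IL-1 and Toll-like ligands, 13 fell and 2 rose after 24 hours (72.2% and 11.1%), and 14 fell and 2 rose after 48 hours (77.8% and 11.1%). TLR3, the sensor of double-stranded RNA, fell (-3.55 after 24 hours and -3.97 after 48 hours), so did TLR4, the sensor of lipopolysaccharide (-1.63 after 24 hours and -1.88 after 48 hours), and the adaptor TRAF5 (-0.995 after 24 hours and -1.22 after 48 hours). IL1RAP, the partner of IL1R1, had log2 fold changes of 0.25 after 24 hours and 0.067 after 48 hours and no call at either time. Of 13 other inhibitor genes, 4 rose and 3 fell after 24 hours (30.8% and 23.1%), and 5 rose and 4 fell after 48 hours (38.5% and 30.8%), near or under the shares of all genes but for the rises after 48 hours. BCL3, an IkB family member in the nucleus, fell (-1.43 after 24 hours and -1.36 after 48 hours), and the deubiquitinases OTUD7B (0.66 after 24 hours and 0.54 after 48 hours) and OTULIN (0.39 after 24 hours and 0.57 after 48 hours) rose.

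Of 21 other target genes tested, 12 fell and 4 rose after 24 hours (57.1% and 19%), and 15 fell and 3 rose after 48 hours (71.4% and 14.3%). Of the 17 over the minimum in both treatments, 8 fell and 4 rose after 24 hours, and 11 fell and 3 rose after 48 hours. The secreted proteases MMP1 (-3.94 after 24 hours and -5.96 after 48 hours) and PLAU (-3.15 after 24 hours and -2.98 after 48 hours) fell, and the transcription factor CEBPD fell (-1.40 after 24 hours and -2.72 after 48 hours). Of 14 prostaglandin and oxysterol genes tested, 7 fell and 4 rose after 24 hours (50% and 28.6%), and 6 fell and 4 rose after 48 hours (42.9% and 28.6%). Among the 12 over the minimum in both treatments, 6 fell and 3 rose after 24 hours, and 5 fell and 4 rose after 48 hours. PTGIS (-3.22 after 24 hours and -3.67 after 48 hours) and PTGES (-1.97 after 24 hours and -1.81 after 48 hours), which act after cyclooxygenase, fell. CYP7B1, an oxysterol enzyme, rose (0.90 after 24 hours and 1.40 after 48 hours).

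Receptors of the listed ligands differed in direction. Of 13 genes of the IL-6 family receptors and STAT3 arm, 7 rose and 3 fell after 24 hours (53.8% and 23.1%), and 6 rose and 4 fell after 48 hours (46.2% and 30.8%). LIFR, the receptor of LIF, rose (1.42 after 24 hours and 0.97 after 48 hours). IL6R fell (-1.46 after 24 hours and -1.96 after 48 hours) and so did the kinase JAK2 (-0.84 after 24 hours and -1.30 after 48 hours). IL11RA, the receptor of IL11, had log2 fold changes of 1.12 after 24 hours and -0.43 after 48 hours, a rise after 24 hours with no call after 48 hours, and the shared subunit IL6ST had 0.20 after 24 hours and 0.097 after 48 hours, also called after 24 hours and not after 48 hours.

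Of 14 chemokine and colony-stimulating factor receptor genes, 3 were tested, of which 2 fell after 24 hours and all 3 after 48 hours. CSF1R, the receptor of CSF1, fell (-2.73 after 24 hours and -2.49 after 48 hours), and so did ACKR3, the atypical CXCL12 receptor (-2.50 after 24 hours and -2.41 after 48 hours). CXCR4, the signalling receptor of CXCL12, had a mean of 0.49 normalized counts and was not tested. Of 10 integrin and adhesion partners tested, 5 fell and 3 rose after 24 hours (50% and 30%), and 4 fell and 3 rose after 48 hours (40% and 30%), the last near the shares of all genes. ITGA4, which with ITGB1 binds VCAM1, fell (-1.58 after 24 hours and -1.56 after 48 hours), and ITGB1 had -0.011 after 24 hours and 0.032 after 48 hours with no call. ITGAL, the alpha chain of the ICAM1 receptor LFA-1, rose (2.60 after 24 hours and 2.09 after 48 hours). ITGB2, the beta chain of LFA-1, had 0 to 7.7 normalized counts per library and was not tested. JAM2, a junctional adhesion molecule, fell (-1.45 after 24 hours and -2.05 after 48 hours).

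Of the 10 genes under the minimum, CXCL6 and IL6 had the most reads. CXCL6, another neutrophil chemokine of the cluster, had 23 reads over the DMSO libraries and 11 over the AZD5153 libraries after 24 hours, and 40 and 49 after 48 hours. IL6, a central inflammatory cytokine, had 27 and 9 reads after 24 hours, and 41 and 12 after 48 hours. CCL20 had 32 reads over the 12 libraries, CSF2 26, IL1A 14, IL32 11, IL1B 10, CCL5 5 and CCL2 2, and CCL7 had 0, which allows up to 3 reads in all, for counting error only. In AZD5153 after 48 hours CCL20, CSF2, IL1A, IL1B, IL32, CCL2, CCL5 and CCL7 had 0 reads in each library. These genes did not enter the main test. With no minimum mean, 9 of the 10 entered it (limma over 33173 genes), and CCL20 was lower after 48 hours (log2 fold change -2.31, adjusted p 0.012) and over both times (-1.99, adjusted p 0.0023), as was IL6 over both times (-1.68, adjusted p 0.023). The other 7 had no call at either time or over both times.

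The order of the 28 genes by level differed between the treatments. Per kilobase of exon, as a mean over the 6 libraries of each treatment, RELA (438 normalized counts per kb), CSF1 (417), OSMR (353) and NFKB2 (179.8) were highest in DMSO, and CXCL8 (10.4) and PTGS2 (10.2) lowest. In AZD5153 RELA (528), OSMR (306), NFKBIA (213) and NFKBIE (110.3) were highest, and GPR183 (1.75) and CXCL8 (1.62) lowest. VCAM1 had 146 normalized counts per kb in DMSO, number 6, and 2.3 in AZD5153, number 26.

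Markers of other cell types moved with the same comparison. All 8 fibroblast and pericyte markers were over the minimum, none was at 0 in every library, and their summed level was 63627 to 79132 normalized counts in DMSO and 21230 to 21961 in AZD5153 after 24 hours, and 84706 to 91185 and 28243 to 28471 after 48 hours. COL1A1 and COL1A2 made up most of these sums. All 8 fell after 24 hours and 6 after 48 hours, where 34.6% and 33.9% of all genes tested were lower. These shares are also the background of the other marker lists. After 48 hours THY1 had a log2 fold change of 0.051 and ACTA2 of -0.84, with no call. Of the 5 fibroblast and pericyte markers over the minimum in both treatments, 5 fell after 24 hours and 4 after 48 hours. Of 8 endothelial markers 4 were over the minimum, with sums of 372 to 411 in DMSO and 74.7 to 103 in AZD5153 after 24 hours, and 667 to 706 and 64.2 to 84.8 after 48 hours. PECAM1 made up most of these sums in DMSO, and it, VWF and TIE1 fell at both times, while KDR rose after 24 hours (1.10 on the log2 scale) and had 0.69 with no call after 48 hours. The endothelial cadherin CDH5 was at 0 in every library. Of 12 leukocyte markers 4 were over the minimum, with sums of 227 to 263 in DMSO and 57.3 to 60.3 in AZD5153 after 24 hours, and 245 to 274 and 36.5 to 64.1 after 48 hours, and CSF1R is one of them. CSF1R, CD163 and FCER1G fell at both times, and CD14 had no call at either. FCER1G, CD163, TIE1, COL3A1, DCN and ACTA2 passed the minimum only through DMSO, and KDR and PTPRZ1 only through AZD5153, so that their direction is partly a condition of being counted. Over it in both treatments, 2 of 2 endothelial markers and 1 of 2 leukocyte markers fell at each time. AIF1, TYROBP and CD3E were at 0 in every library, and PTPRC had a mean of 1.2 normalized counts. The part of these markers in the falls of VCAM1, ICAM1, CXCL12 and the other genes was not tested.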

How the data were processed

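RNA-Seq was analysed in the 12 libraries of SF8628 cells. Alignment to hg38 (STAR), gene counting (HTSeq-count) and normalization (DESeq2) were done by the authors, as the methods and labels say. Tool versions, annotation and strand setting are not given in the sources used here. The deposited signal of each gene is its read number scaled by 1 size factor for the library. Multiplied back, 100% of the values gave whole reads within a tolerance of 0.01, so reads were recovered. The table also holds the authors' own fold changes and p-values for AZD5153 against DMSO, which were not used. The CUT&RUN samples were not analysed here.

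The 15599 genes whose mean reached 10 were taken as log2(normalized count + 1). As the values are normalized, limma was used as the design had foreseen for that case (lmFit, eBayes with a trend, 4 groups in 1 fit, 8 residual degrees of freedom), with Benjamini-Hochberg adjustment at 0.05 over all genes tested, and a fold change on this scale understates the change of low genes. The members and lists were chosen with earlier results of these data known. All 39 listed genes are accounted for. From each pathway list the 3 genes with the largest change over both times were named, among those past the threshold at both times with a mean of at least 100, together with the receptors of listed ligands. Alternatives were a pseudocount of 0.5 or 10, no minimum mean or one of 100, 3 other scalings (equal totals, quantile normalization and 7 stably expressed genes), a replicate block, only the groups compared, eBayes without a trend, edgeR with TMM and DESeq2 on the recovered reads, and leaving out each library. The limma and edgeR steps were also run on simulated data in which few genes changed, unlike in these libraries. That run does not test the scaling. Gene positions and exon lengths are those of GENCODE on GRCh38, and promoter windows are from RefSeq. Python 3.11.15 with pandas 2.3.3 and R 4.3.3 with DESeq2 1.42.0, edgeR 4.0.16 and limma 3.58.1 were used.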

Additional observations from a re-analysis of the deposited data

Results flagged for a closer look

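For 8 genes the AZD5153 effect differed between 24 and 48 hours by the test of the difference itself (limma, effect at 48 hours minus effect at 24 hours on the log2 scale). ICAM1 (-3.17), LIF (-2.43) and CSF1 (-0.59) had larger falls at 48 hours, and CXCL3 (2.03) had a smaller one. REL (-0.56), NFKBIZ (-0.72) and IL11 (-1.18) had rises at 24 hours that were smaller or gone at 48 hours, and OSMR (-0.47) had its fall at 48 hours. Among all genes tested, 24.5% had such a difference. The call for REL was lost under 11 settings (adjusted p from 0.0505 to 0.11), and that for IL11 without AZD5153 at 24 hours replicate 1 (adjusted p 0.060), without DMSO at 48 hours replicate 2 (adjusted p 0.058) and with eBayes without a trend (adjusted p 0.056).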

How the results depend on the processing

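Under other settings, 1877 values of single genes kept their direction and call, 91 lost the call, 18 gained it and 3 reversed. The reversals were OSMR at 24 hours with equal totals (-0.083) and with stably expressed genes (-0.0067), and IL11 at 48 hours with quantile normalization (0.031), none of them called. A minimum mean of 100 left 20 genes, of which 13 were lower at 24 hours and 14 over both times, and 0 had an upward difference between times. With equal totals the median of all genes moved to -0.12 at 24 hours and -0.17 at 48 hours, 3896 genes were higher and 6511 lower at 48 hours (5159 and 5294 with the deposited scaling), and 1 listed gene was higher at 48 hours and 3 over both times, against 3 and 5. Quantile normalization gave 5 higher at 48 hours. An upward difference between times was called for 2 genes with a pseudocount of 10 and with DESeq2, against 1. From 24 to 48 hours in DMSO, equal totals gave 6 higher and 3 lower, edgeR 5 higher, DESeq2 and the fit of only the groups compared 10 lower, and no minimum mean 2 lower, against 3 higher and 6 lower. In AZD5153 5 were higher with stably expressed genes and with only the groups compared, against 3. The cause of these moves was not tested, except that fewer genes entered at the higher minimum. Across all genes tested, the calls of the difference between times were 2254 higher and 1575 lower, but 1760 and 1893 with equal totals and 2826 and 1165 with stably expressed genes. The calls of time in DMSO were 2551 and 3015, and 3126 and 2440 with equal totals, and those of time in AZD5153 were 2472 and 2155, and 3406 and 1372 with stably expressed genes.

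Leaving out 1 library at a time gave 5 to 6 higher and 20 to 21 lower at 24 hours, 2 to 4 higher and 18 to 22 lower at 48 hours, 5 to 6 higher and 22 lower over both times, 1 to 2 upward and 5 to 7 downward differences between times, 3 to 4 higher and 2 to 7 lower with time in DMSO, and 3 to 4 higher and 8 to 9 lower with time in AZD5153. Without DMSO at 24 hours replicate 1 the second upward difference was RELA, and without AZD5153 at 48 hours replicate 2 it was CXCL8.

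Replicate numbers did not pair the libraries: same-numbered libraries had correlations of their deviations from -0.15 to 0.036 in 18 pairs, 0 of them over 0.1. With the replicate number as a block, 6 genes were higher and 20 lower at 24 hours and 2 higher and 21 lower at 48 hours. NFKBIE (adjusted p 0.056) and PTGS2 (adjusted p 0.052) lost their call at 48 hours and CXCL3 (adjusted p 0.045) gained one. Depth limits the 5 neutrophil chemokines, VCAM1, GPR183 and, at 48 hours, ICAM1, CXCL12 and LIF, with at most 29 reads per AZD5153 library, and the 10 genes under the minimum.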
